A study of Mus musculus with 4 samples.

Results

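Binding of the CP2-family transcription factor Tfcp2l1 was examined at 5 genes that encode transcription regulators of the pluripotent state: Pou5f1, Sox2, Sall4, Foxd3 and Utf1. They were taken from 21887 protein-coding genes. Every ChIP-seq peak with its summit inside one of the 5 genes or within 50 kb of an end was assigned to that gene, and for Sox2 the window was also widened to 150 kb. This gave 66 regions found in both repeats, of 43851 such regions in the genome. The cells were wild-type mouse embryonic stem cells kept with LIF (1000 units/mL) and 2i, that is the GSK3 inhibitor CHIR99021 (3 µM) and the MEK inhibitor PD0325901 (1 µM). There were 2 repeats, each with 1 library from chromatin precipitated with 10 µg of a custom antibody to Tfcp2l1 and 1 input library of chromatin without precipitation. The labels name neither the line nor separate cultures, so differences between the repeats may be technical. All libraries shared genotype and medium, and no control without Tfcp2l1 was analysed here. Expression was not measured, so the identity of the cells could not be checked against marker genes.

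Pou5f1 encodes Oct4, a POU factor that is required for pluripotency and that binds DNA together with Sox2, a factor of the HMG-box class. Sall4 is a zinc finger protein that acts with Oct4 and Nanog in embryonic stem cells. Foxd3 is a forkhead factor needed to maintain the epiblast, and Utf1 is a chromatin-associated protein and a classic target of Oct4 and Sox2. Tfcp2l1 acts downstream of LIF and supports the naive state. Enhancers of Pou5f1 lie upstream of its start, a distal enhancer cluster of Sox2 known as the Sox2 control region lies far downstream, and the known enhancer of Utf1 lies just past the gene. The positions of these elements are not in the files used here, so no peak was assigned to them.

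The first question was whether Tfcp2l1 bound at the starts of these genes. RefSeq windows of GRCm38.p6 (250 bases before to 50 after a start) were present for Pou5f1, Sox2, Foxd3 and Utf1. Only the 250 bases before a start were used as its window. The 250 bases before the start are shown for these genes because a peak of repeat 1 overlapped the windows of Pou5f1 and Foxd3, while no peak of either repeat overlapped those of Sox2 and Utf1. All lie on the plus strand. Capitals mark the 4-base half-sites (CNNG) in each match to CNNGNNNNNNCNNG, a loose form of the site bound by CP2 factors, in which N is any base.
Pou5f1, chr17:35505782-35506031: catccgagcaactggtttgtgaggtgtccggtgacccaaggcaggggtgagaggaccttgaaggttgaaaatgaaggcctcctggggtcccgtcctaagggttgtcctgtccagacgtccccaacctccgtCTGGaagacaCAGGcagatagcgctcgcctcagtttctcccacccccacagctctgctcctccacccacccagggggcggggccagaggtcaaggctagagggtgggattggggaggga
Foxd3, chr4:99656049-99656298: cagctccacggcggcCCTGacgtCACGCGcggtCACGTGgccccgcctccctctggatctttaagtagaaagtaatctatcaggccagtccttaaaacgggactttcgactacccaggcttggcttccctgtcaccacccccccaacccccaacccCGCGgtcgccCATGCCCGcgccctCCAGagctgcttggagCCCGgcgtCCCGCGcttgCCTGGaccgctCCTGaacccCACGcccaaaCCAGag
Sox2, chr3:34649745-34649994: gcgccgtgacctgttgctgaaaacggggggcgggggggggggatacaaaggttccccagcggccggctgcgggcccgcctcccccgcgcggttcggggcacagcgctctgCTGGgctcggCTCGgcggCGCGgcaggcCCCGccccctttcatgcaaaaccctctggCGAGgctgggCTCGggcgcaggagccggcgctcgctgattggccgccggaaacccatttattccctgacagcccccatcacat
Utf1, chr7:139943606-139943855: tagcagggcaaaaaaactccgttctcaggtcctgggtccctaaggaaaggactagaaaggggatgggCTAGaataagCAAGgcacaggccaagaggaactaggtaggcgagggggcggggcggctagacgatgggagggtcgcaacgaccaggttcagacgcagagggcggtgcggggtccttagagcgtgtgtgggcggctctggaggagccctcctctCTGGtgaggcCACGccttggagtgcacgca

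Peaks at the starts were weak and found in 1 repeat. The peak over the start of Pou5f1 had 42 tags and 9.93-fold enrichment over input in repeat 1, and that over the start of Foxd3 had 32 tags and 8.21-fold. The deposited fold enrichment compares ChIP tags at a summit with the local background estimated by the peak caller. Another RefSeq start of Pou5f1, which lies inside the gene, was overlapped by a peak of repeat 1 with 35 tags and 11.4-fold enrichment. Of 32851 start windows in the table, 25.1% were overlapped by a peak of repeat 1 and 19.5% by a peak of repeat 2, against 3 and 0 of the 5 windows of these 4 genes. The loose CP2 form was present before the starts of Pou5f1, Foxd3, Sox2 and Utf1, with peak or without, but not before the inner start of Pou5f1. It was held by 63.5% of all windows, so its presence is common. The stricter form CCAGNNNNNNCCAG (2.78% of all windows), the octamer ATGCAAAT (1.60%) and TCAAGGTCA, a site of Esrrb type (0.387%), were not found in any of the 5 windows. Both strands were searched, and matches of the loose form may overlap each other. A match is a description of the letters and not of binding.

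Around the genes, shared peaks were counted in windows that reach far beyond the gene bodies. All 5 genes had a peak found in both repeats (called shared when the peaks overlapped by at least 1 bp) within 50 kb, and all 5 had one within 10 kb. Among all protein-coding genes 80.6% had a shared peak within 50 kb and 64.5% within 10 kb, so neither count sets these genes apart. A shared peak of at least 10-fold in both repeats lay within 50 kb of all 5, against 71.6% of all genes. The windows of 50 kb held 54 shared peaks, of which 2 lay inside a gene of the set, 1 in Pou5f1 and 1 in Sall4. The genes are only 1257 bp (Utf1) to 18870 bp (Sall4) long, so they fill a small part of these windows. Whether the count inside them differs from that part was not tested. Some of the other peaks lay inside neighbouring genes.

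The number of sites differed between the genes. Pou5f1 had 17 shared peaks within 50 kb, Sall4 14, Utf1 9, Sox2 8 and Foxd3 6, where the median protein-coding gene had 4. Pou5f1 had more shared peaks than 98.1% of all genes and Sall4 more than 96.0%. Utf1 exceeded 83.0%, Sox2 78.2% and Foxd3 65.8%. Long genes have wider windows: among the 11849 genes of at most 20 kb, which include all 5, the median was 3, and the corresponding values ran from 69.7% (Foxd3) to 99.4% (Pou5f1).

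**Figure D1:**
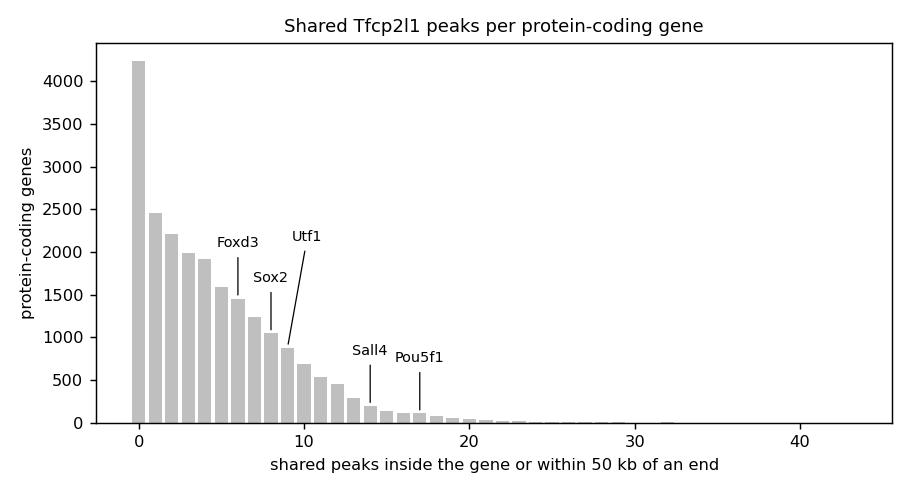
Number of protein-coding genes (y axis) by the number of shared Tfcp2l1 peaks inside the gene or within 50 kb of an end (x axis). The lines mark Foxd3 at 6, Sox2 at 8, Utf1 at 9, Sall4 at 14 and Pou5f1 at 17, where the median over all genes is 4.

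The strongest sites, ranked by the mean of their ranks of fold enrichment in both lists, did not follow the number of sites. Foxd3, with the fewest shared peaks, had the strongest peak within 50 kb, at 127-fold in repeat 1 and 69.1-fold in repeat 2. Utf1 followed with 81.2-fold and 66.9-fold, then Pou5f1 with 69.5-fold and 62.0-fold. Sall4 (40.7-fold and 24.3-fold) and Sox2 (34.8-fold and 27.9-fold) came last, close to the medians of the strongest peak over all genes with one (41.1-fold and 28.5-fold). By mean rank over both lists, 4.18% of all genes had a stronger best peak than Foxd3, 10.1% than Utf1, 14% than Pou5f1, 42.8% than Sall4 and 43.1% than Sox2. The peak of Sall4 was the higher in repeat 1 and that of Sox2 in repeat 2, although another shared site of Sall4 reached 28.5-fold in repeat 2.

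**Figure D2:**
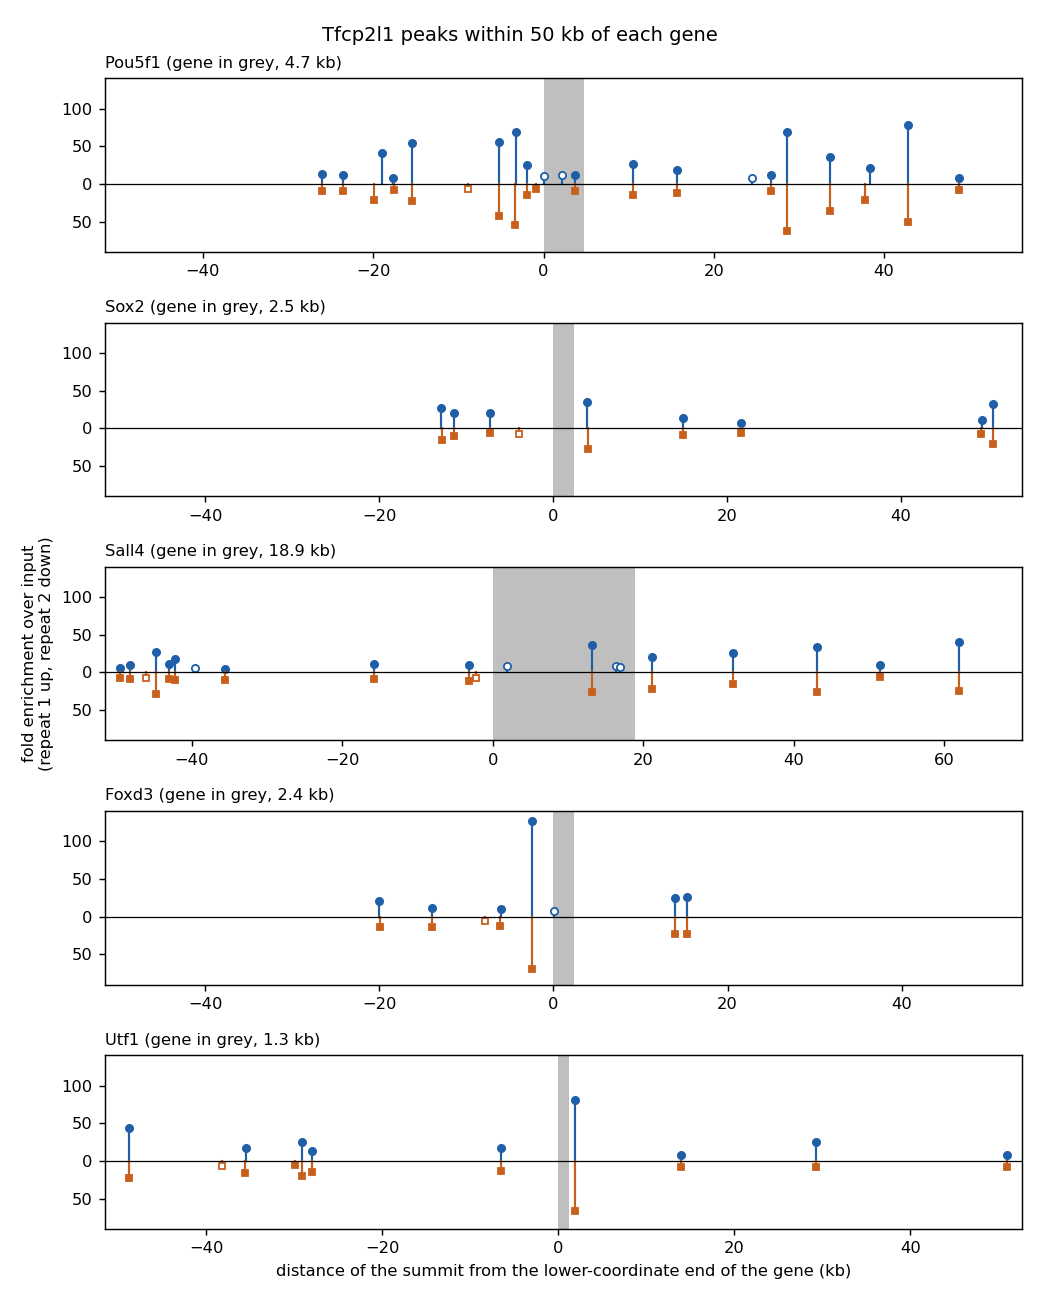
Fold enrichment over input (y axis, repeat 1 upward in blue circles, repeat 2 downward in orange squares) of every peak within 50 kb, by the distance of its summit from the lower-coordinate end of the gene in kb (x axis). Filled symbols are peaks found in both repeats, open symbols peaks of 1 repeat, and the grey band is the gene. The tallest line is that of Foxd3 just before its start, at 127-fold and 69.1-fold.

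Upstream of Pou5f1 a run of sites led up to the start. The strongest of these had its summit 3.29 kb before the start (chromosome 17, 35502216 to 35503605 in repeat 1), with 299 tags in repeat 1 and 269 in repeat 2. Its fold enrichment was 69.1 and 54.5. As CPM, the tags per 1000000 filtered ChIP tags of the library, this was 15.4 (95% Poisson interval 13.7 to 17.3) and 11.9 (10.5 to 13.4). These intervals were narrowly apart, with repeat 1 higher. The peak of repeat 1 also overlapped the next peak of repeat 2, and tags were counted over unlike spans. A second site 5.21 kb before the start had 227 and 264 tags (56.2-fold and 43.2-fold), equal at 11.7 CPM in each repeat. The site 1.97 kb before the start was weaker, with 117 and 70 tags (25.6-fold and 14.9-fold). Its interval in repeat 1 was also overlapped by a small separate peak of repeat 2, 0.891 kb before the start, with 33 tags and 6.28-fold enrichment. These 3 sites all lay within Gm32362, a long noncoding RNA gene next to Pou5f1.

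Inside Pou5f1, toward its far end, 1 shared peak with its summit 3.70 kb past the start had 61 and 45 tags (12.4-fold and 9.12-fold). It was the shared peak nearest to the gene and stood near the medians of 12.1-fold and 10.2-fold of all deposited peaks. Further upstream, at 15.5 kb, a site had 163 and 102 tags, 54.6-fold in repeat 1 and 22.0-fold in repeat 2. Here the CPM intervals (7.18 to 9.82 and 3.69 to 5.49) did not overlap. At 19.0 kb, a broad peak of 186 and 178 tags had summits 931 bp apart in the repeats.

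Most of the sites in the Pou5f1 window were nearer to other genes. Of its 17 shared peaks, 5 had Pou5f1 as the nearest protein-coding gene and 12 had another. The window also covers or touches H2-Q10, Tcf19, Cchcr1, Psors1c2 and Cdsn. The strongest shared peak by mean rank lay in Psors1c2, 23.8 kb past the end of Pou5f1, with 226 and 283 tags (69.5-fold and 62.0-fold). The next lay in Cdsn, which encodes the skin adhesion protein corneodesmosin, 38.1 kb past the end, with 242 and 234 tags (78.6-fold and 50.4-fold). The site 3.29 kb before the start of Pou5f1 ranked next after these.

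Sox2, in contrast, stood alone: no other protein-coding gene lay within 150 kb, and its neighbours were long noncoding RNA genes, among them Sox2ot, which contains it. Within 50 kb the strongest site lay 1.43 kb past the end of the gene (chromosome 3, 34653286 to 34654598), with 131 and 141 tags, or 6.77 CPM (5.66 to 8.03) and 6.25 (5.26 to 7.37). Its fold enrichment was 34.8 and 27.9. This site was also the nearest to the gene, and its CPM intervals overlapped. Upstream, 3 weaker shared sites lay 7.19, 11.3 and 12.9 kb before the start, with 57, 64 and 73 tags in repeat 1 and 36, 46 and 52 in repeat 2. A peak 3.92 kb before the start was called in repeat 2 alone, with 49 tags and 7.46-fold enrichment. At the far edge of the window, 48.1 kb past the end, a site had 142 and 92 tags (32.2-fold and 20.6-fold).

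Widening the window to 150 kb changed the picture at Sox2. The count rose from 8 to 20 shared peaks, and 82.9% of all genes had fewer within 150 kb. The added region held by far the highest value at this gene: a site with its summit 111 kb past the start (chromosome 3, 34760897 to 34762167), with 453 tags in repeat 1 and 447 in repeat 2. Its fold enrichment was 124 and 79.3, with 0.519% and 0.80% of the peaks of each list above it. CPM values were 23.4 (21.3 to 25.7) and 19.8 (18 to 21.7). The intervals overlapped by little, and overlap does not show that the values are equal. Its score had reached 3100 in both lists, a value tied over 964 peaks of repeat 1 and 664 of repeat 2, so scores could not rank it.

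That site was the last of 5 shared peaks spread over 7.48 kb. The other 4 lay 104, 106, 107 and 108 kb past the start, with 70, 99, 113 and 32 tags in repeat 1 and 53, 89, 144 and 47 in repeat 2. Their fold enrichment was 24.6, 38.6, 31.4 and 6.29 in repeat 1 and 13.3, 22.4, 31.4 and 7.06 in repeat 2. The 5 peaks, a group picked out after their values were seen, held 767 of the 1740 tags in shared peaks within 150 kb of Sox2 in repeat 1 (44.1%) and 780 of 1676 in repeat 2 (46.5%). Upstream of Sox2 the same distance was empty. From 100 to 150 kb there were 8 shared peaks downstream and 0 upstream, where neither list held a peak. From 50 to 100 kb each side held 2 shared peaks, with 134 and 122 tags upstream and 91 and 69 downstream in repeats 1 and 2. From 12.9 to 88.0 kb before the start no shared peak was found, a stretch of 75.2 kb. At the distance of 94.3 kb upstream a site had 109 and 92 tags (19.7-fold and 19.6-fold).

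**Figure D3:**
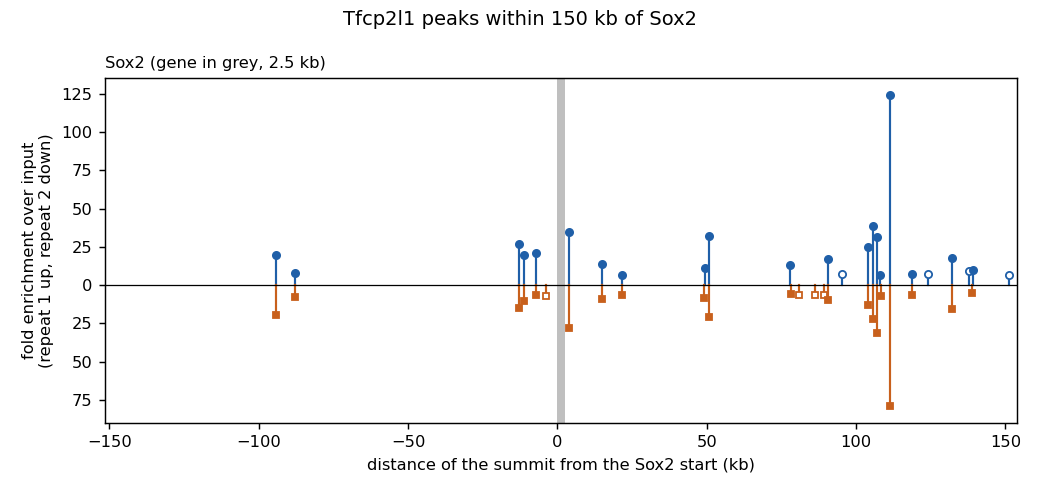
Fold enrichment over input (y axis, repeat 1 upward in blue, repeat 2 downward in orange) of every peak within 150 kb of Sox2, by the distance of its summit from the start of the gene in kb (x axis). Filled symbols are shared peaks and open symbols peaks of 1 repeat. The tall line 111 kb past the start reaches 124-fold and 79.3-fold, and the flank before the start is empty over 75.2 kb.

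Foxd3 had its binding gathered in a single region before the start. That peak (chromosome 4, 99652728 to 99655422) had its summit 2.47 kb before the start, with 663 tags in repeat 1 and 509 in repeat 2. It held 63.2% of all tags in the shared peaks around the gene in repeat 1 and 55.5% in repeat 2. CPM values were 34.3 (31.7 to 37.0) and 22.6 (20.6 to 24.6), the highest of any peak around the 5 genes in each repeat and higher in repeat 1 by more than counting error. Here too the score was the tied 3100 in both lists.

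The other 5 shared peaks of Foxd3 were weaker. A couple of neighbouring sites 11.6 and 12.9 kb past the end had 76 and 84 tags in repeat 1 and 85 and 84 in repeat 2, with 25.3-fold and 26.1-fold enrichment in repeat 1 and 23.1-fold and 22.8-fold in repeat 2. These were nearly equal in the repeats, with 17% to 21.2% of the peaks of a list above them. A site 20 kb before the start had 139 and 137 tags, spread over a broad interval, and its fold enrichment was 20.2 and 13.5. No other protein-coding gene lay in the window. The next shared peak past the end lay outside it, at 63.4 kb, with 49.8-fold and 51.8-fold enrichment.

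At Utf1 the main site lay just past the gene. Its summit was 0.708 kb past the end (chromosome 7, 139945155 to 139946392), with 242 tags in repeat 1 and 314 in repeat 2, and 81.2-fold and 66.9-fold enrichment. CPM values were 12.5 (11.0 to 14.2) and 13.9 (12.4 to 15.5), with overlapping intervals. The nearest on the other side was 6.47 kb before the start, inside Kndc1, with 51 and 57 tags (16.9-fold and 13.3-fold). Of the 9 shared peaks in the window, 2 had Utf1 as the nearest protein-coding gene. Kndc1, which encodes a Ras exchange factor of neurons, held 5 of the others, including those next in mean rank, 48.7 kb (125 and 85 tags, 44.0-fold and 23.1-fold) and 29.1 kb (95 and 77 tags, 25.6-fold and 19.6-fold) before the start of Utf1.

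Sall4 had many sites of moderate strength. The strongest inside the gene (chromosome 2, 168760740 to 168762028) had 143 tags in repeat 1 and 139 in repeat 2, with 37.0-fold and 26.1-fold enrichment. CPM values were 7.39 (6.23 to 8.70) and 6.16 (5.18 to 7.28), with overlapping intervals. The table used gives no strand for Sall4, so its sites are placed by coordinate only. Beyond the higher-coordinate end, 5 shared peaks reached from 2.35 kb (99 and 140 tags, 20.4-fold and 22.4-fold) to 43.1 kb. The last of these was the strongest by mean rank, with 137 and 101 tags, 40.7-fold and 24.3-fold, and its CPM intervals did not overlap. Next in rank after the site inside the gene was a site 24.2 kb beyond the same end, with 109 and 132 tags (33.3-fold and 25.9-fold).

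The other flank of Sall4 runs into Atp9a, a gene of a membrane lipid transporter family. It held 8 shared peaks, all with Atp9a as the nearest protein-coding gene. Of these the strongest, 44.8 kb below Sall4, had 93 and 99 tags (26.7-fold and 28.5-fold). Inside Sall4, 3 further peaks were called in repeat 1 alone, with 20 to 31 tags and fold enrichments up to 8.33. At 50.8 kb below the gene, just outside the window, a shared peak had 34.9-fold and 34.3-fold enrichment, while the outermost peak inside it, at 49.5 kb, had 5.79-fold and 7.85-fold. The count at Sall4 therefore depends on where the window ends.

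**Figure D4:**
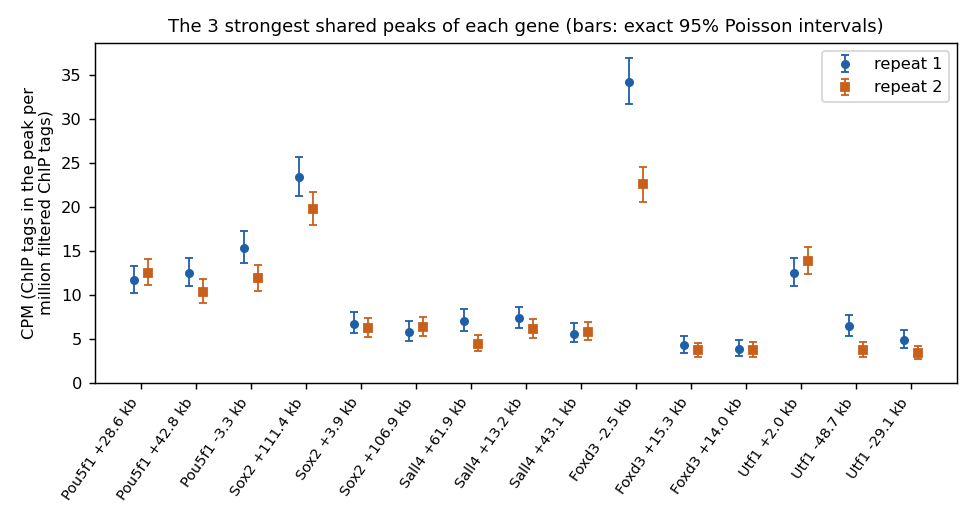
CPM, the ChIP tags per 1000000 filtered ChIP tags (y axis), in the 3 shared peaks that rank best by fold enrichment over both lists at each gene, Sox2 within 150 kb and the others within 50 kb. Labels give the distance from the lower-coordinate end, points are the repeats, and bars are exact 95% Poisson intervals of the tag count. The Foxd3 peak stands highest in each repeat, at 34.3 and 22.6, and the Sox2 peak 111 kb past the start comes next, at 23.4 and 19.8.

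The repeats gave nearly the same set of sites at these genes. Of the 62 peaks of repeat 1 within 50 kb, 54 (87.1%) overlapped a peak of repeat 2, where 76.1% of all its peaks did. Of the 62 peaks of repeat 2, 56 (90.3%) overlapped a peak of repeat 1, where 84.8% of all did. Some peaks overlapped more than 1 peak of the other list, hence 54 and 56. The 8 peaks of repeat 1 alone had 20 to 42 tags and the 6 of repeat 2 alone 19 to 49, below the medians of 75.0 and 68.5 tags of the 54 shared peaks. Of the 54, 50 had their summits within 100 bp of each other (92.6%, against 88.7% of all shared peaks), and the median gap was 20 bp against 28 bp.

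Fold enrichment was mostly higher in repeat 1. It was so at 52 of the 66 shared peaks, and at 33957 of all 43851 shared peaks. The median log2 ratio of repeat 2 to repeat 1 was -0.36 at the 66 and -0.39 over all. The same shift was thus present over the lists as a whole. The peak most raised in repeat 2 lay 35.5 kb below Sall4, with 57 and 71 tags (5.22-fold and 9.81-fold). Across the 66 regions the fold enrichments of the repeats had a Spearman's rho of 0.880 (0.800 over all shared peaks), and on the log2 scale a Pearson's r of 0.902 (0.850). The regions share their libraries and many share a locus, so they are not independent. The CPM intervals did not overlap at 10 of the 54 peaks, all 10 higher in repeat 1. Tags were counted in the interval that each list gives, and these differ in span, so not every such gap is one of signal. At the site 1.97 kb before Pou5f1, which is among the 10, repeat 2 had separate peaks of 70 and 33 tags where repeat 1 had a single peak. Over all shared peaks 19.9% were apart with repeat 1 higher and 3.06% with repeat 2 higher.

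**Figure D5:**
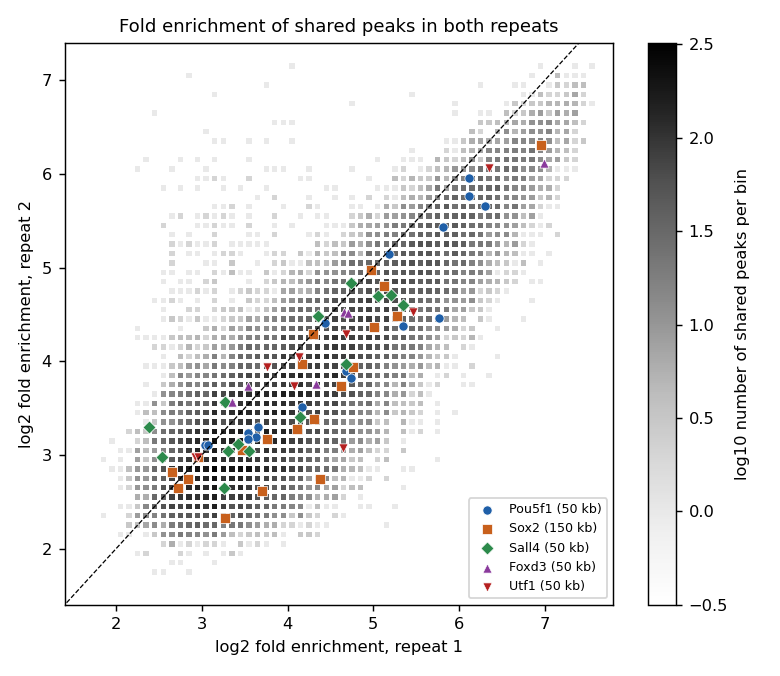
Log2 fold enrichment of shared peaks in repeat 1 (x axis) and repeat 2 (y axis). Grey squares count all 43851 shared peaks per bin on a log10 scale, coloured symbols are the 66 shared peaks of the 5 genes, and the dashed line marks equal values. Of the 66, taken within 150 kb of Sox2 and within 50 kb of the others, 52 lie below the line. The highest belong to Foxd3 and to Sox2, that of Sox2 lying beyond 50 kb from the gene.

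Among other genes of the pluripotency network, 23 of 24 had a shared peak within 50 kb, where 80.6% of all genes did. They had a median of 9.50 shared peaks, against 9 for the 5 genes and 4 for all genes, and their strongest peaks had median fold enrichments of 63.1 and 39.2. Those of the 5 genes had 69.5 and 62.0. By mean rank over both lists, the strongest were at Esrrb, a nuclear receptor gene (168-fold and 127-fold, 25 shared peaks), at Prdm14, a repressor of differentiation genes (154-fold and 123-fold), and at Tet1, a DNA demethylase gene (159-fold and 114-fold). Nr0b1 had no shared peak, with 1 peak in repeat 1 and 0 in repeat 2. Dppa2 and Dppa4 are neighbours and share their strongest peak.

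By the strongest shared peak in the 2 repeats, the gene of that list most like Foxd3 was Fbxo15 (101-fold and 67.5-fold), a distance of 0.33 on the log2 scale. The nearest to Utf1 was Tbx3 (86.7-fold and 78.5-fold, 0.25), and the nearest to Pou5f1 was Dppa5a (58.7-fold and 57.9-fold, 0.26). For Sall4 it was Dppa3 (47.8-fold and 26.5-fold, 0.26) and for Sox2 within 50 kb Lefty1 (43.3-fold and 33.7-fold, 0.42). With 2 values per gene these are descriptions of level only.

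Relatives of the 5 genes from the POU, Sox, Sall and Foxd families had fewer sites by median. Of 15 such genes 14 had a shared peak within 50 kb, where 80.6% of all protein-coding genes did. Their median was 3 shared peaks, against 4 for all genes and 3 for genes of at most 20 kb. The medians of their strongest peaks were 40.9-fold and 27.9-fold, near those of all genes. By mean rank, the strongest were at Pou2f3, a POU factor of tuft and skin cells, inside the gene (103-fold and 62.3-fold, 18 shared peaks), in the window of Pou3f1, a neural POU factor, where it lay nearest to Fhl3 (80.5-fold and 53.6-fold), and 19.7 kb from Sall1, a kidney development factor (94.2-fold and 37.2-fold). Foxd4 had no peak of either repeat. No test compared these lists, and windows of neighbouring genes can hold the same peak.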

How the data were processed

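ChIP-seq of Tfcp2l1 was read from 2 deposited peak lists, 1 per repeat. Per the file headers, the authors called peaks with MACS 1.4.1 on each ChIP library against the input of its repeat, at a p-value limit of 1e-05, with tags of 35 bp, a fragment length of 200 bp and at most 2 duplicate tags per position. Per the file headers, filtered ChIP tags numbered 19353473 and 22555373, and input tags 18446758 and 23825930. CASAVA 1.8.2 is named in the submitters' processing notes. The deposited tag count is a whole number per peak, without normalization. The deposited fold enrichment is a ratio to the local background, the deposited score is 10 times -log10 of the p-value, and the deposited FDR is in percent (at most 0.12). Which aligner was used was not given in the sources used here.

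Although the processing notes name mm9, the positions are those of GRCm38: on the chromosomes of the 5 genes, 13.6% to 18.9% of shared summits lay within 1 kb of a protein-coding gene end, and 4.29% to 8.02% when shifted by 100 kb. Genes came from RefSeq (GRCm38.p6), without strand or exons, so exons and introns were not told apart. Summits are start + summit - 1. The partner of a shared peak was the overlapping peak with the nearest summit. CPM is the tag count of a peak over the filtered ChIP tags of its library. Intervals are exact Poisson intervals of tag counts and cover counting error only. Overlap and window counts were tested on simulated data. Python 3.11.15, pandas 2.3.3 and scipy 1.17.1 were used.

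The 5 genes and the lists were chosen with earlier results of these data known, so no p-value is given. In each window the 3 shared peaks ranked best by fold enrichment over both lists and the shared peak nearest to the gene were named by rule, with their host genes. From the other lists, the 3 genes with the strongest peaks and those without a shared peak were named. Other peaks named were chosen after their values were seen. Alternatives were other definitions of a shared peak, stricter limits, other distances, rank by tags and each repeat alone, and, added after seeing the data, a background of genes of at most 20 kb and these settings for the relatives. Peak sequences were not analysed here.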

Additional observations from a re-analysis of the deposited data

How the results depend on the processing

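No paired analysis was possible because no value of an input library is in the peak lists, which hold 1 condition. Of 104 alternative values, 82 stayed close to the reported one (counts within 1.5 times). Some of these could not have moved: all 5 genes already had a shared peak, so a looser setting could not change that count. Percentages were held to a tighter limit, by which 79.3% against 80.6% counted as moved. The number 82 is therefore not a measure of robustness. With at least 10-fold enrichment in both repeats, shared peaks within 50 kb fell to 11 at Pou5f1, 4 at Sox2 and 7 at Sall4, and within 150 kb of Sox2 to 10. A score of at least 100 in both left 13 within 150 kb of Sox2. Within 10 kb there were 5 at Pou5f1, 2 at Sox2, 3 at Sall4, 2 at Foxd3 and 2 at Utf1, and within 100 kb 26 at Pou5f1, 30 at Sall4 and 11 at Foxd3. The share of all genes with a shared peak was 79.3% with summits within 100 bp, 71.6% and 74.8% with the limits on fold and score, 64.5% within 10 kb, 87.0% within 100 kb, 73.7% among genes of at most 20 kb, and 82.9% to 85.5% with each repeat alone. All 5 genes had a peak within the window under each of these definitions. Within 100 kb the strongest peak of Sall4 had 105-fold enrichment in repeat 1, in place of 40.7-fold. A peak called in 1 repeat does not show absence of binding in the other, and what this depth can detect was not tested.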

Other observations

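Small RNA genes lay beside some of these sites. The summit of a shared peak in the window of Utf1 fell 13 bp from Mir202, a microRNA gene known from the gonads (chromosome 7, 139957689 to 139957760), with 50 tags in repeat 1 and 36 in repeat 2 (7.55-fold and 7.85-fold, below the medians of both lists). Mir7686 lay 151 bp from the same summit. In the window of Sox2, Mir1897 (chromosome 3, 34638464 to 34638542) lay 105 bp from the summit of a shared peak with 64 and 46 tags (19.8-fold and 10.4-fold). Mir7062, also in the window of Utf1, lay 7943 bp from the nearest shared summit. How many microRNA genes of the genome lie as near to a summit was not computed.

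RefSeq lists 7 pseudogene copies of Pou5f1 under its names or synonyms. No peak of either repeat overlapped any of the 7, and 3 had a shared peak within 50 kb. Among protein-coding genes 80.6% did, and 73.7% of those of at most 20 kb did. No such share was computed for pseudogenes. The share of other features of such length that a peak overlaps was not computed. Whether tags of 35 bp can be placed in copies of 1 gene was not tested. The missing overlap therefore does not show absence of binding.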
